A study of Mus musculus with 30 samples.

Results

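The REV-ERB and ROR nuclear receptors were examined in mouse hearts and in HL-1 cells through 4 genes: Nr1d1 and Nr1d2, which encode REV-ERBα and REV-ERBβ, and Rora and Rorb, which encode RORα and RORβ. The 4 genes were taken by name, with no threshold on measured values but with earlier results of these data known, and are 4 of 20764 genes in the heart counts and 4 of 54532 in the HL-1 counts. REV-ERBs and RORs bind the same short DNA element, the ROR response element. REV-ERBs bind heme and recruit the NCoR-HDAC3 corepressor, so they repress genes such as Arntl (also called Bmal1), Clock and Nfil3, whereas RORs activate them. The CLOCK-BMAL1 pair in turn activates Nr1d1 and Nr1d2 through E-boxes, which closes the secondary loop of the circadian clock. In heart and other tissues REV-ERB transcripts are known to peak during the light phase, while Rora varies little over the day and Rorb is best known from retina and brain.

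Bulk mRNA-seq had been performed on 18 hearts of female mice, labelled C57BL6 and in the study's methods a mixed C57Bl6J/N background, in 6 groups of 3. Young mice were 2 months old and old mice 12 months old, and hearts were taken at Zeitgeber time (ZT) 10, in the light phase, or at ZT22, in the dark phase. Old mice drank either plain water (old H2O) or water with 3 g/L nicotinamide riboside (NR), an NAD+ precursor, which they had received from 2 months of age (old NR). NR was given by cage, so hearts of the NR groups may come from cage mates, and only 2 times of day were sampled, so a shift of the rhythm and a change of its height cannot be told apart. A second set held 12 libraries of HL-1 cells, a line from a mouse atrial tumour, in 4 groups of 3: untreated (Ctrl), with FK866, which inhibits the NAD+-producing enzyme NAMPT, with FK866 and NR, and with FK866, NR and Ex527, a SIRT1 inhibitor. The labels give no culture for each HL-1 library, and the study's methods describe replicates of cell experiments in general as wells cultured apart, so p-values measure the spread between such wells of 1 line.

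Heart libraries held 3922137 to 7562215 counts and HL-1 libraries 21337922 to 35000109. In each of the 3 ZT22 heart groups replicate 1 was the shallowest library. Hearts carried the cardiomyocyte markers at a summed 4657 to 7044 CPM, the count scaled to library size by edgeR's TMM method (counts-per-million). In HL-1 cells the same 6 markers summed to 0.262 to 4.36 CPM with 2 of them at 0 in every library. The 5 atrial markers summed to 0.320 to 1.70 CPM, whereas the 5 fibroblast markers summed to 639 to 893 CPM. Most of the fibroblast sum was Col1a1, at group means of 486 to 736 CPM. At the other end, 1 of these 5 was at 0 in every library. The cardiomyocyte label of the line was therefore not borne out by the cardiomyocyte and atrial markers. FK866+NR replicate 1 stood apart: it held 350 genes with at least 10 counts that were at 0 in the other 11 libraries, against none such in any of those, and its 6 neuron and glia markers summed to 91.1 CPM against 0.906 to 1.66 CPM elsewhere, with Snap25 at 561 counts and at 0 in the rest.

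In the GRCm38 annotation, Nr1d1 (ENSMUSG00000020889) lies on the minus strand at chr11:98767932-98775333, and 263 of its exon bases, 8.55%, are shared with Thra, the thyroid hormone receptor α gene on the opposite strand. Nr1d2 (ENSMUSG00000021775) lies on the minus strand at chr14:18204054-18239127, Rora (ENSMUSG00000032238) on the plus strand at chr9:68653786-69388246, and Rorb (ENSMUSG00000036192) on the minus strand at chr19:18930605-19111196. Rora shares 82 exon bases, 0.63%, with an antisense gene, Gm15511, which the heart counts did not list and which had 0 counts in HL-1 cells. Heart reads had been counted after a stranded library preparation, and the strand setting of the HL-1 counts is not given in the sources used here, so Nr1d1 and Thra may share reads there.

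Promoter windows of 300 bases, each ending 50 bases after the start of transcription (RefSeq, GRCm38.p6), are shown for the REV-ERB genes and for 2 of their known targets, because these 2 hold the searched ROR response element core, while the windows of Clock, Npas2 and Cry1 do not. They were searched on both strands for the ROR response element core TAGGTCA, its half-site AGGTCA, which lies within that core, the E-box CACGTG, the E'-box CACGTT, the D-box TTANGTAA and the cAMP response element TGACGTCA. Capitals mark matches, and a match on the other strand reads as the reverse complement.
Nr1d1, chr11:98775328-98775627, minus strand: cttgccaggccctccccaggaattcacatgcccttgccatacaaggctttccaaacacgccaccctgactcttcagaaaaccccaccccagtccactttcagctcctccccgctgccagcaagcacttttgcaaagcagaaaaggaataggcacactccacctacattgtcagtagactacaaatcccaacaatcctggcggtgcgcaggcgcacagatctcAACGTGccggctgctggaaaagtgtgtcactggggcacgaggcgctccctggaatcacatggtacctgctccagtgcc
Nr1d2, chr14:18239057-18239356, minus strand: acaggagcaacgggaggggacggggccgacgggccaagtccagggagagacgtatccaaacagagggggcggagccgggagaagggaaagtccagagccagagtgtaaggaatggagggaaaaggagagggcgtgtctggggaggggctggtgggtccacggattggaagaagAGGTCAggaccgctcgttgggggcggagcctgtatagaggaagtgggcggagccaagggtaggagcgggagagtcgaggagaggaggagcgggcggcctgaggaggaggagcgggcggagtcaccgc
Arntl, second of 2 windows, chr7:113207261-113207560, plus strand: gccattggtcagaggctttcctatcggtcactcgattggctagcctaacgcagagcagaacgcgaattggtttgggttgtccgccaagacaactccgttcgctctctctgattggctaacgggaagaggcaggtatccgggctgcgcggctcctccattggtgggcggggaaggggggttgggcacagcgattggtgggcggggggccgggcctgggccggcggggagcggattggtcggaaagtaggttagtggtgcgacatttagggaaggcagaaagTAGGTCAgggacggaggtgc
Nfil3, chr13:52980990-52981289, minus strand: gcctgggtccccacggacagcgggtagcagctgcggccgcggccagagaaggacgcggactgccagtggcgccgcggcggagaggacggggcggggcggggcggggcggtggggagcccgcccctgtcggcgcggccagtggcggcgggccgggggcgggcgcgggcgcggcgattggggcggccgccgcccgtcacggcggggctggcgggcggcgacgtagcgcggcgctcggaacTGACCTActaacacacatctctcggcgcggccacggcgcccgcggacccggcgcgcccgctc
The E'-box of Nr1d1 begins at -28 and the half-site of Nr1d2 at -77. The core TAGGTCA begins at +31 in Arntl and at -12 in Nfil3, and its A/T-rich flank was not searched. Fabp7, a listed target with too few heart counts to be tested, also held the core, at -171, and its window is not shown. Neither REV-ERB window held the core or CACGTG, and the first Arntl window held none of the 6 motifs. Clock, whose transcript also fell at ZT10, held a half-site at -119 in 1 of 3 windows and no core, Npas2 held none of the 6 motifs, and Cry1 held an E-box at -60 and an E'-box at -79 but neither half-site nor core. TAGGTCA occurs in 2.61% of 32851 promoter windows, AGGTCA in 16.26%, CACGTT in 4.68% and CACGTG in 7.15%. The window of Rora held none of the 6 motifs, and the first of the 2 Rorb windows held an E'-box at -234 and a D-box at -95, motifs found in 4.68% and 2.32% of windows. These are letter matches only and do not show binding.

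Nr1d1 and Nr1d2 were high at ZT10 and low at ZT22 in all 3 kinds of heart, and the difference of Nr1d2 was smaller in old than in young hearts, with a higher ZT22 level. Differences were tested with edgeR's quasi-likelihood test on all 15443 heart genes with an average count over 5, with Benjamini-Hochberg adjustment, and called at an adjusted p under 0.05. All 4 genes passed the filter. Between ZT10 and ZT22, 2 of the 4 genes were called in young hearts, where 14.4% of all genes were called. In old H2O hearts it was 3 of 4, against 4.2% of all genes, and in old NR hearts 2 of 4, against 5.37%.

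Nr1d1, which encodes the heme-responsive repressor REV-ERBα, stood at 169, 126 and 139 CPM in the 3 young ZT10 hearts and at 49.8, 62.4 and 39.4 CPM in the 3 taken at ZT22. The old H2O hearts held 141, 162 and 136 CPM of Nr1d1 at ZT10 and 74.0, 60.9 and 64.1 CPM at ZT22. The old NR hearts held 149, 143 and 144 CPM of Nr1d1 at ZT10 and 46.6, 38.8 and 62.8 CPM at ZT22. In each kind of heart every ZT10 value of Nr1d1 lay above every ZT22 value, and at ZT10 the ranges of the 3 kinds of heart overlapped. The log2 fold change of Nr1d1 from ZT22 to ZT10 was 1.51 ± 0.15 (SE, n = 3 per group) in young hearts, a 2.85-fold difference (adjusted p = 3.71e-07). It was 1.16 ± 0.14 in old H2O hearts (2.23-fold, adjusted p = 2.81e-05) and 1.55 ± 0.14 in old NR hearts (2.93-fold, adjusted p = 4.02e-07). For Nr1d1 the difference between the old H2O and young time effects was -0.35 ± 0.21 and did not pass the test (adjusted p = 0.341). At ZT22 Nr1d1 was 0.37 ± 0.16 higher on the log2 scale in old H2O than in young hearts (95% interval 0.04 to 0.70, adjusted p = 0.124) and 0.41 lower in old NR than in old H2O hearts (log2 fold change -0.41 ± 0.16, interval -0.73 to -0.08, adjusted p = 0.303), neither past the threshold.

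Nr1d2 encodes REV-ERBβ, which shares DNA targets and corepressor with REV-ERBα. Young hearts held 289, 284 and 291 CPM of Nr1d2 at ZT10 and 59.7, 68.5 and 66.2 CPM at ZT22. Old H2O hearts held 294, 276 and 298 CPM of Nr1d2 at ZT10 and 141, 107 and 96.7 CPM at ZT22. Old NR hearts held 282, 219 and 279 CPM of Nr1d2 at ZT10 and 110, 118 and 125 CPM at ZT22. Each of the 6 old hearts at ZT22 was above each of the 3 young hearts at that time, while at ZT10 old H2O and young hearts overlapped and the highest old NR heart, at 282 CPM, was just below the lowest young heart. The time effect on Nr1d2 was 2.15 ± 0.11 on the log2 scale in young hearts (4.43-fold, adjusted p = 1.62e-11), 1.35 ± 0.11 in old H2O hearts (2.55-fold, adjusted p = 3.24e-08) and 1.14 ± 0.10 in old NR hearts (2.20-fold, adjusted p = 3.5e-07).

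**Figure D1:**
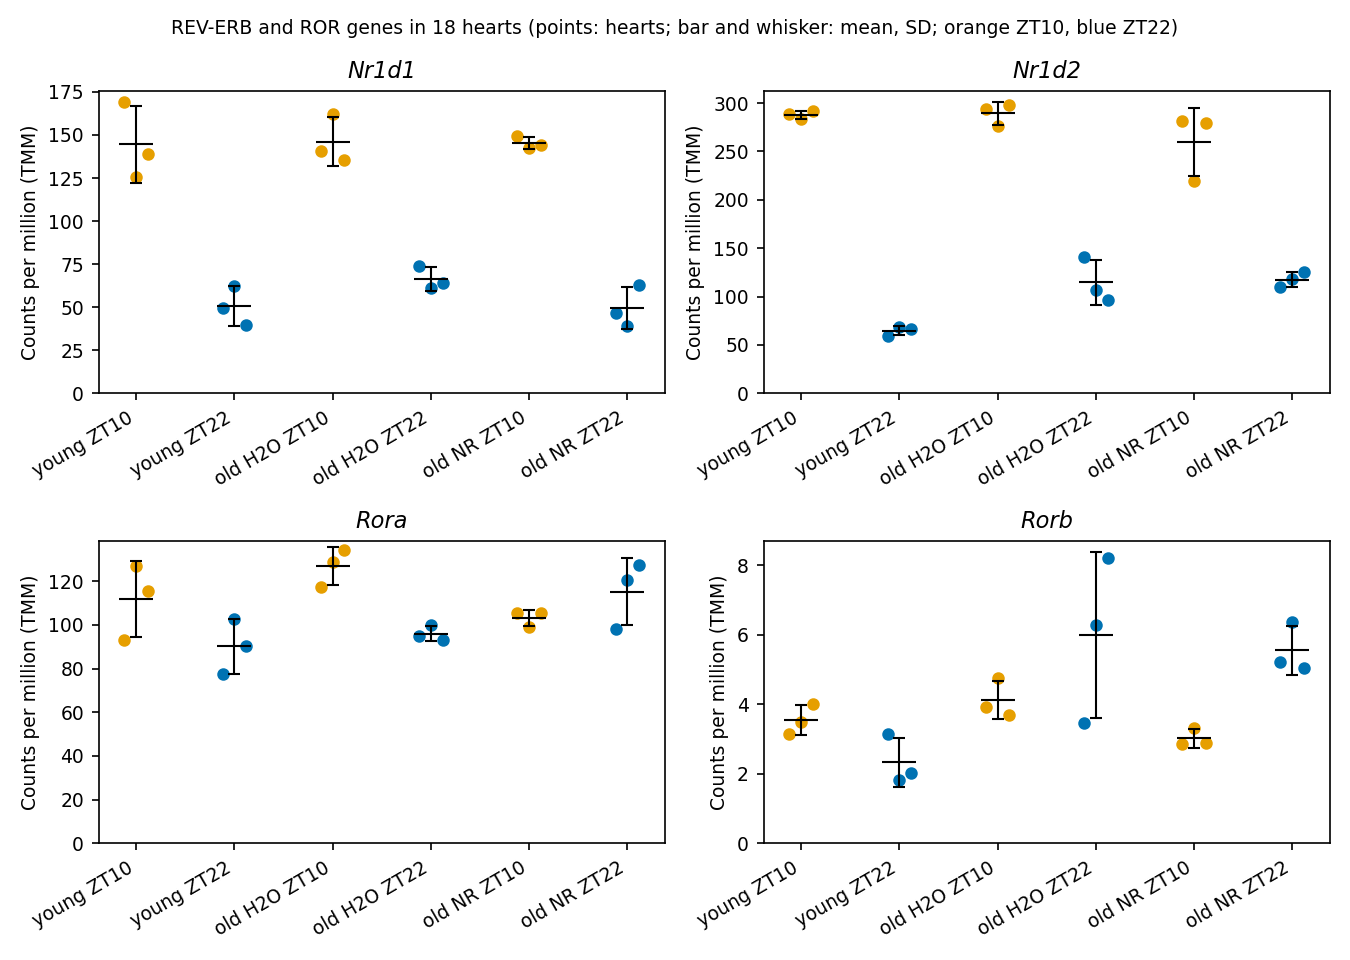
Levels of Nr1d1, Nr1d2, Rora and Rorb in the 18 hearts, in CPM after TMM scaling (vertical axes from 0, each gene on its own scale), by group; points are hearts, bars and whiskers the mean and SD, orange ZT10 and blue ZT22. Nr1d1 and Nr1d2 are high at ZT10 in every group, and the 6 old hearts at ZT22 lie between 96.7 and 141 CPM for Nr1d2 against 59.7 to 68.5 CPM in young hearts.

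The test of the difference itself was called for Nr1d2 in both old groups. The time effect on Nr1d2 was smaller in old H2O than in young hearts by a log2 difference of -0.79 ± 0.15 (adjusted p = 0.00328), the only one of the 4 genes called there, against 6.89% of all genes. For old NR against young the difference was -1.01 ± 0.15 (adjusted p = 0.000504), and Nr1d2 and Rorb were the 2 of 4 genes called, against 5.98% of all genes. Between old NR and old H2O hearts the difference in the time effect on Nr1d2 was -0.21 ± 0.15 (95% interval -0.52 to 0.09, adjusted p = 0.667). Both contrasts with young hearts use the same 6 young libraries and are given side by side.

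Split by time, Nr1d2 was called between old and young hearts at ZT22. There Nr1d2 was 0.80 ± 0.12 higher in old H2O than in young hearts on the log2 scale (1.74-fold, adjusted p = 9.55e-05) and 0.86 ± 0.11 higher in old NR than in young hearts (1.82-fold, adjusted p = 3.79e-05). At ZT10 the same contrasts of Nr1d2 were 0.01 ± 0.10 (interval -0.20 to 0.22) and -0.15 ± 0.10 (interval -0.36 to 0.06). Nr1d2 in old NR against old H2O hearts differed by -0.16 ± 0.10 at ZT10 (interval -0.36 to 0.05) and by 0.06 ± 0.11 at ZT22 (interval -0.17 to 0.28).

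In the old against young contrasts, 2 of the 4 genes, Nr1d2 and Rorb, were called at ZT22 for old H2O hearts, against 14.1% of all genes, and 3 of 4, with Rora, for old NR hearts, against 14.2%. At ZT10 edgeR called 0 of 4 in either contrast, with 0 at an unadjusted p under 0.05 and 0 by DESeq2, against 5.87% of all genes for old H2O and 4.28% for old NR. For NR in old hearts, edgeR called 0 of 4 at ZT10, against 0.285% of all genes, 0 of 4 at ZT22, against 0.35%, and 0 of 4 for the difference in the time effect, against 0.343%. DESeq2 also called 0 in these 3 contrasts, and 1, 2 and 1 of the 4 genes had an unadjusted p under 0.05.

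Some cell type markers were also called at ZT22 in the contrasts with young hearts. There 14.1% of all genes were called for old H2O and 14.2% for old NR, so 1 of 5 markers is near that share. In old H2O against young hearts 4 of 5 macrophage markers were higher, with summed levels of 305.6 to 346 CPM against 217 to 234 CPM, 1 of 5 endothelial markers was lower, and 2 of 5 fibroblast markers were higher and 1 lower. In old NR hearts the macrophage sum was 224 to 245 CPM, overlapping the young range, with 1 of 5 markers higher, 1 of 5 fibroblast markers was lower, and 3 of 5 endothelial markers were lower (1192 to 1378 CPM against 1457 to 1601 CPM). The part of these markers in the values of Nr1d2, Rora and Rorb was not tested. In whole hearts, fewer cells of a type and less RNA per cell cannot be told apart.

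**Figure D2:**
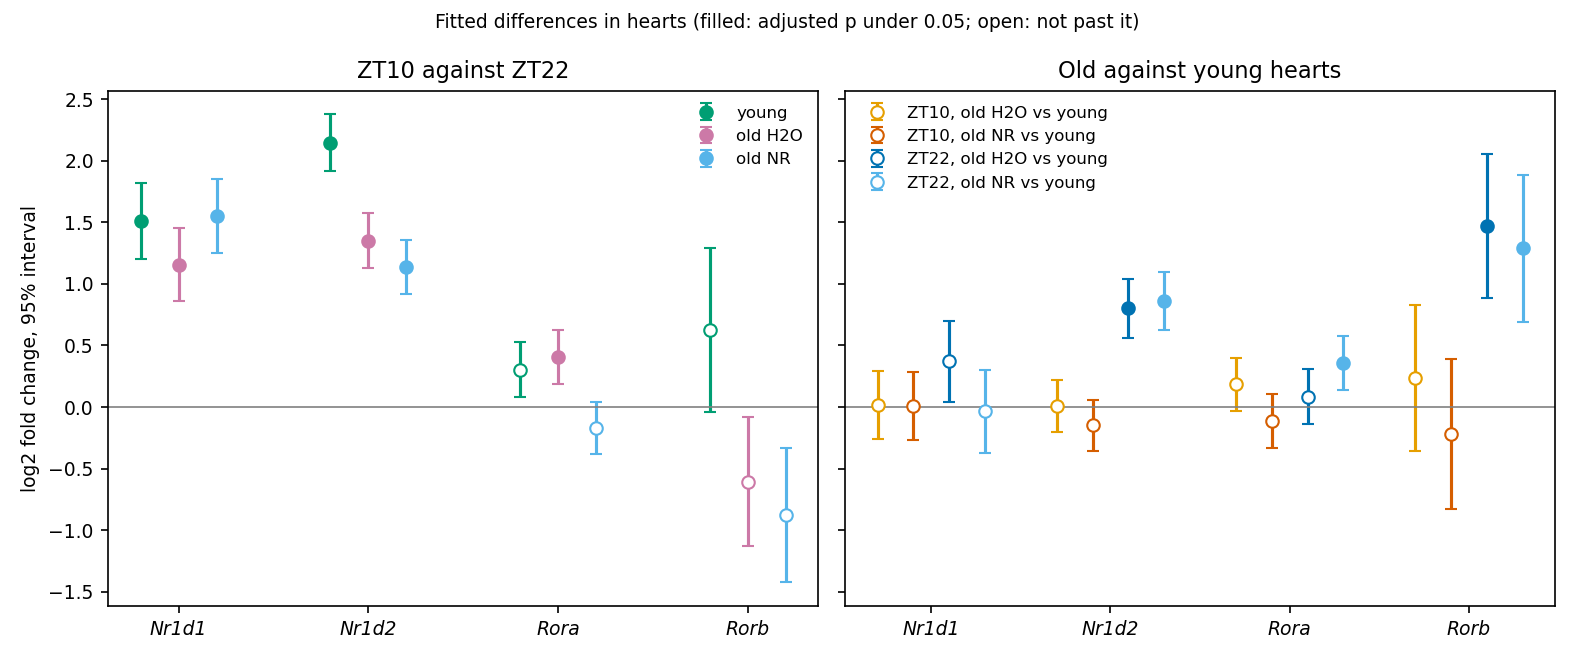
Fitted log2 fold changes of the 4 genes with 95% intervals, ZT10 against ZT22 within each kind of heart (left) and old against young hearts at each time (right); filled points passed an adjusted p of 0.05, open points did not. For Nr1d2 the time effect is 2.15 (young), 1.35 (old H2O) and 1.14 (old NR), and its old against young differences are 0.80 and 0.86 at ZT22.

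Per exon kilobase the 2 REV-ERB genes were close in level and the RORs lower. Young hearts at ZT10 held Nr1d2 at 53.2 ± 0.742 (SD, n = 3) CPM per kilobase, Nr1d1 at 47.0 ± 7.23, Rora at 8.55 ± 1.33 and Rorb at 0.320 ± 0.0388. The ranges of Nr1d1 and Nr1d2 overlapped, and those of the other neighbours in this order did not. At ZT22 Nr1d1 stood at 16.4 ± 3.75 and Nr1d2 at 12.0 ± 0.851 CPM per kilobase in young hearts, with Rora at 6.90 ± 0.955. There the ranges of Nr1d1 and Nr1d2, 12.8 to 20.3 and 11.03 to 12.7 CPM per kilobase, did not overlap. In old H2O hearts at ZT22 Nr1d1 stood at 21.6 ± 2.23 and Nr1d2 at 21.3 ± 4.30 CPM per kilobase, and in old NR hearts at 16.1 ± 3.97 and 21.8 ± 1.37, with overlapping ranges in both.

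The balance of the 2 REV-ERB transcripts was also compared within each heart, as the log2 ratio of counts per exon kilobase, a measure that needs no scaling between libraries. For Nr1d1 to Nr1d2 it was 0.55, 0.68 and 0.06 in young hearts at ZT22, -0.12, -0.001 and 0.22 in old H2O hearts, and -0.43, -0.79 and -0.18 in old NR hearts. The old NR ratios at ZT22 lay below all old H2O and all young ratios at that time, while old H2O and young overlapped. The mean ratio at ZT22 was 0.90 lower in old NR than in young hearts (difference -0.90) and 0.50 lower than in old H2O hearts (difference -0.50), with an exact two-sided permutation p = 0.1 for each. With 3 against 3 hearts 0.1 is the smallest p this test can give, so none of its 60 comparisons could pass 0.05. At ZT10 the 3 kinds of heart overlapped, with mean Nr1d1 to Nr1d2 ratios of -0.19 ± 0.21, -0.18 ± 0.20 and -0.02 ± 0.18 (SD, n = 3) in young, old H2O and old NR hearts.

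The ratio of Rora, the activator, to Nr1d2, the repressor, was lower at ZT10 than at ZT22 in every kind of heart, with no overlap. Rora to Nr1d2 was -2.65 ± 0.24 (SD, n = 3) in young ZT10 hearts and -0.80 ± 0.10 in young ZT22 hearts. It was -2.46 ± 0.12 and -1.51 ± 0.29 in old H2O hearts and -2.60 ± 0.15 and -1.31 ± 0.11 in old NR hearts. At ZT22 the 3 young ratios, -0.89, -0.69 and -0.82, lay above all 6 old ones, which ran from -1.84 to -1.24 (exact permutation p = 0.1, the smallest possible, for each old group). Rora to Nr1d1 at ZT22 was -1.55 ± 0.18 in old H2O and -0.84 ± 0.34 in old NR hearts, a difference of 0.70 with no overlap (exact permutation p = 0.1), and -1.23 ± 0.30 in young hearts, overlapping both.

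**Figure D3:**
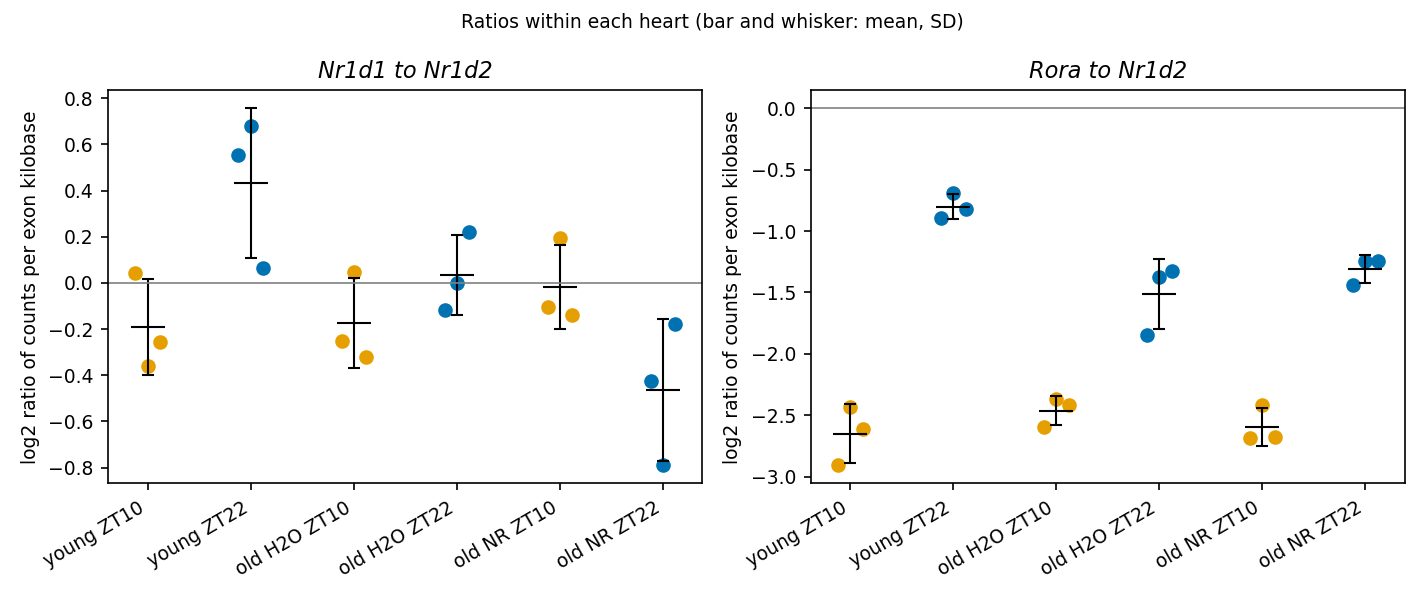
Log2 ratios of Nr1d1 to Nr1d2 (left) and Rora to Nr1d2 (right) within each of the 18 hearts, from counts per exon kilobase; points are hearts, bars and whiskers the mean and SD, orange ZT10 and blue ZT22. At ZT22 the young hearts have the highest Rora to Nr1d2 ratios, -0.89 to -0.69, and the old NR hearts the lowest Nr1d1 to Nr1d2 ratios, -0.79 to -0.18.

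Rora, which competes with the REV-ERBs at the same element, moved far less with time. Young hearts held 92.9, 127 and 115 CPM of Rora at ZT10 and 77.6, 103 and 90.4 CPM at ZT22. Old H2O hearts held 117, 129 and 135 CPM of Rora at ZT10 and 95.03, 99.98 and 92.99 CPM at ZT22. Old NR hearts held 106, 99.1 and 105 CPM of Rora at ZT10 and 97.9, 121 and 127 CPM at ZT22. Only in the old H2O groups did the ZT10 and ZT22 values of Rora not overlap. The time effect on Rora was 0.40 ± 0.11 there (1.32-fold, adjusted p = 0.0297), 0.30 ± 0.11 in young hearts (adjusted p = 0.0641) and -0.17 ± 0.10 in old NR hearts (adjusted p = 0.414). The call in old H2O hearts depended on single hearts: it was kept without ZT10 replicate 1 but lost when any of the other 5 was left out, with log2 values of 0.36 to 0.45 and adjusted p from 0.0436 to 0.129.

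Rora in old NR hearts was 0.30 lower than in old H2O hearts at ZT10 (log2 fold change -0.30 ± 0.10) and 0.28 ± 0.10 higher at ZT22, neither past the threshold (adjusted p = 0.292 and 0.299). The difference in the time effect on Rora between old NR and old H2O hearts was -0.58 ± 0.15 (unadjusted p = 0.000785, adjusted p = 0.115), and it passed when only these 4 groups were fitted (adjusted p = 0.0391). With 1 heart left out it was called in 1 of 12 fits (adjusted p 0.0379 to 0.288), and DESeq2 did not call it. At ZT10 the old NR values of Rora, 99.1 to 106 CPM, lay below the old H2O values, 117 to 135 CPM. In the same contrast 3 of 5 atrial markers were lower, with summed levels of 112 to 130 CPM against 388 to 505 CPM, and their part in the Rora values was not tested. At ZT22 Rora was 0.36 ± 0.11 higher in old NR than in young hearts (1.28-fold, adjusted p = 0.0263), although the ranges overlapped. That call was lost without old NR replicate 2 or 3 or young replicate 1 or 3 (log2 0.27 to 0.46, adjusted p 0.00517 to 0.134) and when only these groups were fitted (adjusted p = 0.0732).

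Rorb was the least abundant member, at 11 to 65 counts per heart. Young hearts held 3.15, 3.48 and 4.001 CPM of Rorb at ZT10 and 3.14, 1.83 and 2.03 CPM at ZT22. Old H2O hearts held 3.93, 4.75 and 3.70 CPM of Rorb at ZT10 and 3.46, 6.28 and 8.21 CPM at ZT22. Old NR hearts held 2.86, 3.32 and 2.87 CPM of Rorb at ZT10 and 5.23, 6.36 and 5.06 CPM at ZT22. At ZT22 all 6 old hearts lay above the 3 young hearts, the closest being old H2O replicate 1, the shallowest heart library, at 3.46 CPM against 3.14 CPM in the highest young heart.

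At ZT22 Rorb was 1.47 ± 0.28 higher on the log2 scale in old H2O than in young hearts (2.77-fold, adjusted p = 0.00147) and 1.29 ± 0.29 higher in old NR than in young hearts (2.44-fold, adjusted p = 0.00411). Both calls of Rorb held in each fit with 1 heart left out, with log2 values of 1.16 to 1.71 and 1.13 to 1.53. At ZT10 the corresponding values for Rorb were 0.23 ± 0.29 and -0.22 ± 0.29, neither past the threshold. The time effects on Rorb were 0.63 ± 0.32 in young, -0.61 ± 0.25 in old H2O and -0.88 ± 0.26 in old NR hearts, none past the threshold (adjusted p = 0.216, 0.203 and 0.0531). The difference in the time effect on Rorb from young hearts was -1.51 ± 0.41 for old NR (adjusted p = 0.0327) and -1.23 ± 0.41 for old H2O (adjusted p = 0.0703). The first of these was called in 5 of 12 fits with 1 heart left out (adjusted p 0.0189 to 0.0923), lost without old NR ZT10 replicate 1 or 3, old NR ZT22 replicate 2, or replicate 2 or 3 of either young group, and lost with DESeq2 (adjusted p = 0.0543).

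Most genes known as REV-ERB and ROR targets were low at ZT10, the time at which Nr1d1 and Nr1d2 were high. Of 9 listed, 6 were tested; Elovl3 and Fabp7 were below the filter and Apoc3 was not listed. In each kind of heart 5 of the 6 fell at ZT10: Arntl, its partners Clock and Npas2, and the repressors Nfil3 and Cry1. Of all genes, 14.4% were called for time in young, 4.2% in old H2O and 5.37% in old NR hearts. The median log2 change of the 6 was -1.74 in young, -0.83 in old H2O and -1.12 in old NR hearts, beside medians of 0.01, -0.001 and -0.01 over all genes tested. Lpl, which frees fatty acids from lipoproteins, did not pass the test in any of the 3.

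Arntl showed the largest time effect among these targets. It stood at 1.57, 2.57 and 1.78 CPM in young hearts at ZT10 and at 114, 130 and 107 CPM at ZT22. Old H2O hearts held 6.82, 6.45 and 9.46 CPM of Arntl at ZT10 and 59.4, 71.0 and 73.8 CPM at ZT22, and old NR hearts 2.32, 4.62 and 3.72 CPM and 90.1, 80.8 and 86.7 CPM. The ZT10 trough of Arntl was highest and its ZT22 level lowest in old H2O hearts, with no overlap with either other group. Between old NR and old H2O hearts, however, edgeR called Arntl at neither time. At ZT10 it called 0 of the 6 targets, with 3 at an unadjusted p under 0.05 and 1 called by DESeq2. At ZT22 it called 0 of 6, with 2 at an unadjusted p under 0.05 and 0 by DESeq2. The time effect on Arntl was -5.86 ± 0.18 in young, -3.19 ± 0.14 in old H2O and -4.55 ± 0.15 in old NR hearts on the log2 scale. The differences between these effects passed the test: 2.67 ± 0.30 for old H2O against young (adjusted p = 1.72e-05), 1.31 ± 0.34 for old NR against young (adjusted p = 0.0253), and -1.36 ± 0.26 for old NR against old H2O (adjusted p = 0.0201). In that last contrast Nr1d1 differed by 0.40 ± 0.20 (interval -0.03 to 0.82, adjusted p = 0.521) and Nr1d2 by -0.21 ± 0.15, so the difference called for Arntl was not called for either REV-ERB gene.

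Nfil3, a repressor of D-box genes, had the same order of time effects, and its difference between old NR and old H2O hearts, -0.30 ± 0.22, did not pass the test (adjusted p = 0.689). It fell at ZT10 by 2.68 ± 0.16 on the log2 scale in young, 1.07 ± 0.16 in old H2O and 1.37 ± 0.15 in old NR hearts. The time effect on Nfil3 differed from that of young hearts by 1.60 ± 0.23 for old H2O (adjusted p = 0.000279) and 1.31 ± 0.23 for old NR (adjusted p = 0.00158). In old H2O hearts the fall at ZT10 was smaller than in young hearts for 4 of the 6 targets, against 6.89% of all genes called. They were Arntl, Nfil3, Cry1 (difference 0.51 ± 0.13) and Clock (0.75 ± 0.14). In old NR hearts it was smaller for 3 of 6, against 5.98% of all genes called. These were Arntl, Nfil3 and Cry1 (0.63 ± 0.13), while Clock stood at 0.47 ± 0.14 (adjusted p = 0.0541).

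Genes driven through E-boxes by CLOCK-BMAL1, as Nr1d1 and Nr1d2 are, rose at ZT10 like both REV-ERB genes. All 11 listed, among them the period genes Per1, Per2 and Per3 and the D-box activators Dbp, Tef and Hlf, did so in each kind of heart, with median log2 changes of 1.62 in young, 1.18 in old H2O and 0.90 in old NR hearts. For time, 14.4%, 4.2% and 5.37% of all genes were called in young, old H2O and old NR hearts. The time effect was smaller than in young hearts for 6 of 11 in old H2O hearts, against 6.89% of all genes called. In old NR hearts it was also smaller for 6 of 11, against 5.98%, with Per1, Per3, Dbp, Tef and Hlf in both counts. For the difference in the time effect between old NR and old H2O hearts edgeR called 0 of 11, against 0.343%. There 2 had an unadjusted p under 0.05 and DESeq2 called 0. At ZT10 edgeR called 5 of 11 lower and 0 higher in old H2O than in young hearts (Per1, Per3, Ciart, Hlf and Bhlhe41), against 5.87%. It called 2 of 11 lower in old NR than in young hearts (Per1 and Per3), against 4.28%. Neither REV-ERB gene was called at that time. At ZT22 3 of 11 were higher and 1 lower in old H2O than in young hearts, against 14.1% of all genes. In old NR hearts at ZT22 6 were higher and 2 lower than in young hearts, against 14.2%. Dbp was 1.07 ± 0.21 higher in old H2O than in young hearts at ZT22 (adjusted p = 0.0019) and Per3 0.98 ± 0.10 higher (adjusted p = 3.08e-06). Per2 was lower at that time (log2 -0.69 ± 0.16, adjusted p = 0.00677).

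**Figure D4:**
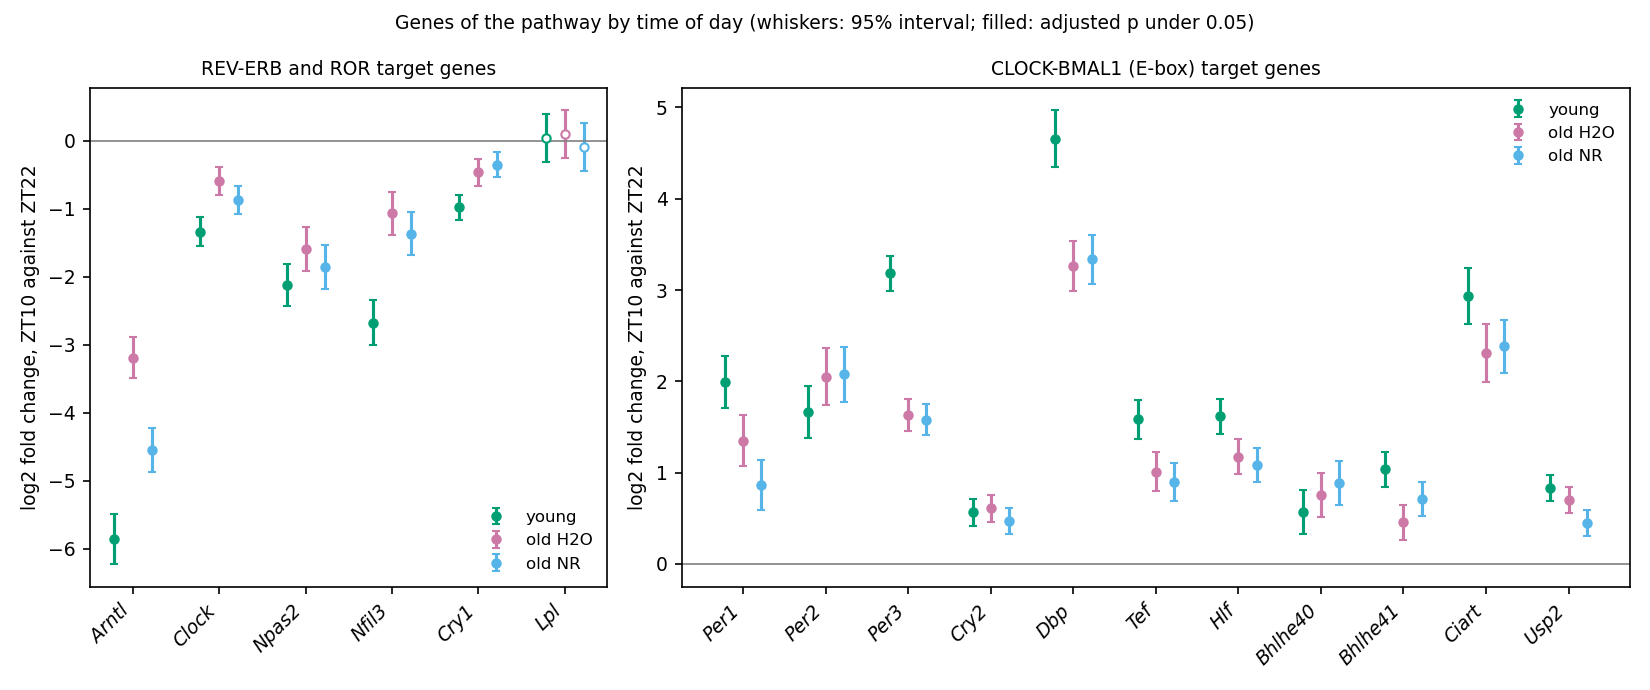
Fitted log2 fold changes from ZT22 to ZT10 with 95% intervals for 6 tested REV-ERB and ROR targets (left) and 11 CLOCK-BMAL1 targets (right) in young, old H2O and old NR hearts; filled points passed an adjusted p of 0.05, open points did not. Arntl is lowest, at -5.86, -3.19 and -4.55 in young, old H2O and old NR hearts, and all 11 CLOCK-BMAL1 targets lie above 0.

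Of the 6 genes of the NCoR complex, through which REV-ERBs repress, 1 changed with time in young hearts (Tbl1x, log2 0.19 ± 0.06, adjusted p = 0.0407), near the share of all genes called there, 14.4%, and 0 were called by DESeq2. In edgeR 0 were called in the other 11 heart contrasts, with 0 to 2 at an unadjusted p under 0.05 and 0 by DESeq2. Of 7 ROR coactivators and corepressors, Ppargc1b, a coactivator of energy metabolism, was 0.46 ± 0.11 higher at ZT22 in old H2O than in young hearts (adjusted p = 0.0101) and 0.58 lower in old NR than in old H2O hearts (log2 -0.58 ± 0.11, adjusted p = 0.0248). It was the only 1 of the 7 called in either contrast, against 14.1% and 0.35% of all genes. The count over all genes in the second contrast, 54, fell to 2 when only these groups were fitted. In addition, edgeR called 1 of the 7 lower at ZT10 than at ZT22 in old H2O hearts, and 1 higher for NR by time. Within old NR hearts Ncoa1 was lower at ZT10 than at ZT22 (log2 -0.28 ± 0.08, adjusted p = 0.0368), and DESeq2 called 0 of the 7 there. At ZT10 edgeR called 0 of 7 between old NR and old H2O hearts.

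Among 7 genes of REV-ERB protein stability, Fbxw7, a ubiquitin ligase subunit that targets REV-ERBα, fell at ZT10 in all 3 kinds of heart (log2 -0.29 ± 0.07, -0.32 ± 0.07 and -0.44 ± 0.07). Siah2, a ubiquitin ligase for the REV-ERBs, was lower at ZT22 in old H2O (log2 -1.06 ± 0.15, adjusted p = 7.17e-05) and in old NR (-0.88 ± 0.15, adjusted p = 0.000347) than in young hearts, the contrasts in which Nr1d2 transcript was higher. Of the 7 genes, edgeR called 1 lower and 1 higher in each of these contrasts, against 14.1% and 14.2% of all genes. The time effect on Siah2 was -0.64 ± 0.15 in young and 0.54 ± 0.15 in old NR hearts, both called, and 0.31 ± 0.16 in old H2O hearts, not called (adjusted p = 0.317). Of 10 genes that make or break down heme, the REV-ERB ligand, Cpox, which acts late in heme synthesis, fell at ZT10 in young hearts (log2 -0.56 ± 0.08) and was lower at ZT22 in old H2O (-0.40 ± 0.07) and old NR (-0.49 ± 0.07) than in young hearts. Alad, an earlier step, rose at ZT10 in young hearts (log2 0.27 ± 0.08), and Alas1, the rate-limiting first step, was called in no time contrast. Cpox and Alad were 2 of 10 called for time in young hearts, near the share of all genes, 14.4%, and DESeq2 called 1. In each ZT22 contrast with young hearts Cpox was the only 1 of the 10 called, near the shares of all genes, 14.1% and 14.2%.

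Among 8 neighbours and relatives, Thra, the gene opposite Nr1d1, was lower at ZT10 than at ZT22 in old NR hearts (log2 -0.33 ± 0.08, adjusted p = 0.0142), the direction opposite to Nr1d1. The difference of this effect of Thra from that in young hearts was -0.29 ± 0.11 (adjusted p = 0.135). At ZT22, 3 of the 8 were lower in old H2O than in young hearts, the nuclear receptor genes Ppard (log2 -0.32 ± 0.07) and Nr1h2 (-0.20 ± 0.06) and the neighbour Msl1 (-0.22 ± 0.06). In that contrast 14.1% of all genes were called, and DESeq2 called 2 of the 8. For old NR against young hearts at ZT22 edgeR called 0 of the 8, against 14.2% of all genes.

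Across the 18 hearts, the genes whose log2 CPM followed each member most closely, among 11074 or 11075 with an average count of at least 50, are given as a description; the hearts share times of day and groups and are not independent points. For Nr1d2 they were Ephx1 (Pearson r = 0.976), Tef (0.973), Per3 (0.973), Dbp (0.970) and Tspan4 (0.942), and for Nr1d1 Hhipl1 (0.941), Cygb (0.937), Dbp (0.929), Slc12a4 (0.926) and Tspan4 (0.923). For Rora they were Txndc16 (0.906), Gpr137c (0.860), Crebrf (0.855), Bclaf1 (0.839) and Stk17b (0.830), and for Rorb Syne3 (0.914), Ankrd28 (0.856), Ofd1 (0.847), Pisd-ps1 (0.839) and Ago1 (0.834). Dbp and Tspan4 were among the 5 closest genes of both REV-ERBs, and the lists of Rora and Rorb held no gene of the other members' lists.

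In HL-1 cells none of the REV-ERB and ROR genes tested passed the thresholds, an adjusted p under 0.01 and a change over 1.5-fold, when NAD+ synthesis was blocked, when NR was added or when SIRT1 was inhibited. Of the 4 genes 3 were tested among 14760, since Rorb was below the filter. Nr1d1 stood at 7.67, 7.57 and 6.42 CPM in Ctrl, at 7.62, 6.86 and 7.84 CPM with FK866, at 7.33, 6.51 and 7.17 CPM with FK866+NR and at 7.97, 8.27 and 6.08 CPM with FK866+NR+Ex527. All 4 groups of Nr1d1 overlapped, and its log2 differences ran from -0.09 ± 0.13 for FK866+NR against FK866 to 0.09 ± 0.13 for FK866+NR+Ex527 against FK866+NR. The 95% interval of Nr1d1 for FK866 against Ctrl was -0.23 to 0.32.

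Nr1d2 stood higher than Nr1d1 in HL-1 cells, at 49.9, 44.99 and 47.2 CPM in Ctrl and 54.2, 44.2 and 54.9 CPM with FK866. With FK866+NR Nr1d2 stood at 46.4, 39.7 and 48.1 CPM and with FK866+NR+Ex527 at 51.0, 40.0 and 48.0 CPM. The groups of Nr1d2 overlapped, with log2 differences of 0.11 ± 0.10 for FK866 against Ctrl (interval -0.11 to 0.33) and -0.19 ± 0.10 for FK866+NR against FK866 (interval -0.41 to 0.03, adjusted p = 0.182). Per exon kilobase Nr1d2 stood at 8.76 ± 0.453 (SD, n = 3) and Nr1d1 at 2.35 ± 0.226 CPM in Ctrl cells, and Rora at 0.171 ± 0.0392, with no overlap between neighbours in this order. The counts of FK866 against Ctrl were 0 of 3 genes called by edgeR, with 0 at an unadjusted p under 0.05 and 0 by DESeq2, against 4.59% of all genes tested.

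Rora was low in HL-1 cells, at 38 to 121 counts per library. It stood at 2.08, 2.80 and 1.81 CPM in Ctrl, 2.36, 1.63 and 3.03 CPM with FK866, 5.61, 2.62 and 2.90 CPM with FK866+NR and 1.73, 1.52 and 2.12 CPM with FK866+NR+Ex527. The highest value of Rora was in FK866+NR replicate 1, the library with the neuron and glia transcripts. With Ex527, Rora was lower than with FK866+NR alone by a log2 fold change of -1.05 ± 0.30 (adjusted p = 0.0489), short of the 0.01 threshold. Without FK866+NR replicate 1 the log2 value of Rora was -0.63 (adjusted p = 0.24). Rora in FK866+NR differed from FK866 by 0.65 ± 0.30 and from Ctrl by 0.72 ± 0.30 on the log2 scale, and by 0.24 and 0.30 without that library.

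In these contrasts edgeR called 0 of 3 genes, with 1 of 3 at an unadjusted p under 0.05 and 0 by DESeq2, against 4.81% of all genes for FK866+NR against FK866, 0.901% for FK866+NR against Ctrl and 0.596% for FK866+NR+Ex527 against FK866+NR. For FK866+NR+Ex527 it called 0 of 3 against FK866 and 0 of 3 against Ctrl, with 0 at an unadjusted p under 0.05 and 0 by DESeq2 in both, where 1.27% and 1.42% of all genes were called. Rorb had 15 counts in FK866+NR replicate 1 and 0 in the other 11 libraries.

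**Figure D5:**
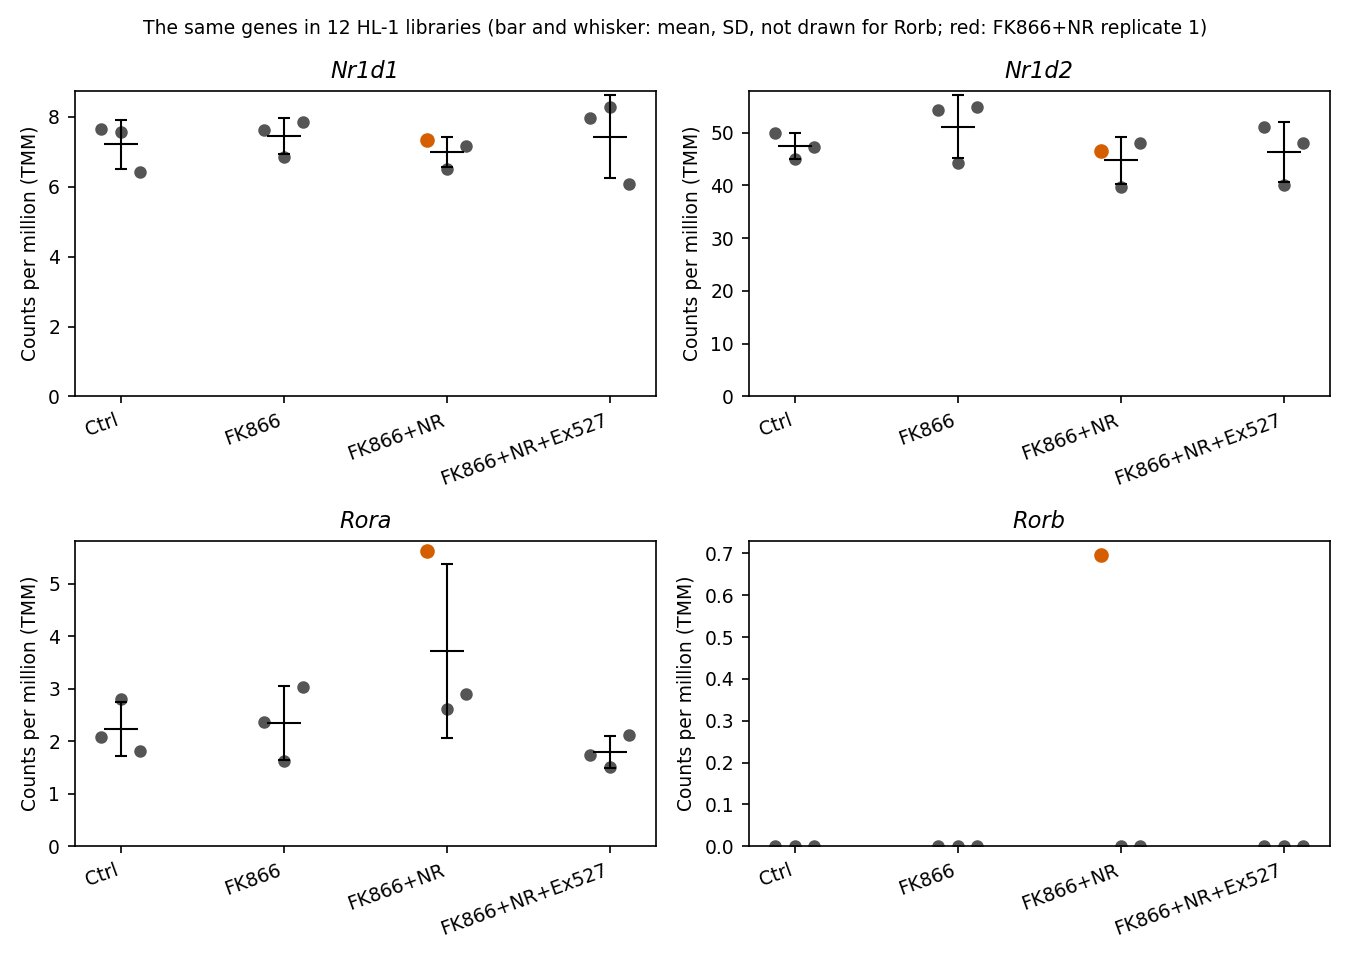
Levels of Nr1d1, Nr1d2, Rora and Rorb in the 12 HL-1 libraries, in CPM after TMM scaling (vertical axes from 0, each gene on its own scale), by treatment; points are libraries, bars and whiskers the mean and SD (not drawn for Rorb), and the red point is FK866+NR replicate 1. That library holds the highest Rora, 5.61 CPM, and all the Rorb counts, while Nr1d1 and Nr1d2 overlap between the 4 groups.

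Some other genes of the pathway passed the thresholds in HL-1 cells. Of all genes tested, 4.59% were called with FK866 and 4.81% when NR was added. Among 6 tested neighbours and relatives edgeR called 1 lower with FK866, and 1 higher and 1 lower when NR was added. Thra fell with FK866 (log2 -0.68 ± 0.10, adjusted p = 0.00024) and rose when NR was added (0.61 ± 0.10, adjusted p = 0.000594), while Nr1d1 on the opposite strand was not called in either contrast. The log2 ratio of Nr1d1 to Thra was -0.83 ± 0.04 (SD, n = 3) with FK866 and -1.55 ± 0.11 in Ctrl, with no overlap (exact permutation p = 0.1, the smallest possible).

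Of the 5 tested REV-ERB and ROR targets edgeR called 0 with FK866, with 3 at an unadjusted p under 0.05 and 0 by DESeq2, and their median log2 change was 0.03 beside 0.02 over all genes. Arntl changed by -0.12 ± 0.08 with FK866 (adjusted p = 0.299). Of the 11 CLOCK-BMAL1 targets, Per1 (0.83 ± 0.11, adjusted p = 5.17e-05) and Cry2 (0.64 ± 0.10, adjusted p = 0.000401) rose with FK866 and Dbp fell (-0.73 ± 0.12, adjusted p = 0.000458), and when NR was added Per3 rose (0.64 ± 0.14, adjusted p = 0.00283). These were 2 of 11 higher and 1 lower with FK866, against 4.59% of all genes, and 1 of 11 when NR was added, against 4.81%. Of the 7 ROR coactivators and corepressors, 1 was called in each of these contrasts. Ncoa1 rose with FK866 (0.72 ± 0.15, adjusted p = 0.00344) and Nrip1, a corepressor of nuclear receptors, rose when NR was added (0.69 ± 0.11, adjusted p = 0.000466). The contrast for added NR includes FK866+NR replicate 1, the library with the neuron and glia transcripts. Whether the calls of Per3 and Nrip1 hold without that library was not tested. For FK866 against Ctrl edgeR called 0 of 7 stability genes, with 1 at an unadjusted p under 0.05, and 0 of 10 heme genes, with 7 at an unadjusted p under 0.05, and DESeq2 called 0 of either.

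The genes closest to Rora over the 12 HL-1 libraries were Psd3 (r = 0.907), Slc1a2 (0.890), Herc4 (0.883), Map2 (0.882) and Mkln1 (0.874). Without FK866+NR replicate 1 their correlations with Rora were 0.738, 0.759, 0.803, 0.662 and 0.794, and none was among the 5 closest, which were then led by Zfp850 (0.923). For Nr1d1, 4 of the 5 closest genes over 12 libraries were Stat5b (0.886), Ubxn6 (0.855), Taf8 (0.827) and Sugp1 (0.814), and for Nr1d2 Gm12346 (0.878), Trmt10a (0.867), Ahr (0.836), Gm26917 (0.829) and Tcea1 (0.827). For Nr1d1 and Nr1d2 the same 5 genes were closest without that library.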

How the data were processed

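Hearts (18 libraries) were sequenced by the authors as stranded mRNA; per the study's methods and processing notes, reads were trimmed (Trimmomatic 0.39), aligned to mm10 (STAR 2.7.10a), freed of duplicates (Picard 3.0.0) and counted per gene (featureCounts 2.0.4), leaving out reads over several genes. The deposited heart counts were in the table named as normalized; the other deposited table, taken as a score, held DESeq2-normalized values rounded by the authors and was used only for gene symbols. HL-1 libraries were poly(A) paired-end, and the notes name HISAT2; the authors deposited counts and FPKM, the latter used only to check gene lengths. Duplicate removal can lower high counts, such as those of abundant genes.

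Counts were tested in edgeR 4.0.16 (R 4.3.3), TMM scaling, all groups of a set in one fit; hearts at an average count over 5, HL-1 with filterByExpr. SE is the log2 fold change over the root of F. The pipeline was tested on simulated data. Members and gene lists were chosen with earlier results of these data known. The genes named are the 4 members, listed pathway genes, the 5 genes closest to each member, and genes overlapping their exons; some genes of these lists are not reported here, and list counts leave out those of the pathway lists. Of 20764 heart and 54532 HL-1 genes, 20737 and 54409 matched GENCODE M21. Alternatives were DESeq2 1.42.0, its size factors, other filters, a replicate block, only the groups compared, and each library left out; a library size covariate was added after seeing the data. Replicate numbers did not pair samples: no contrast had all 3 correlations of deviations over 0.1. The exact permutation test was used for ratios.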

Additional observations from a re-analysis of the deposited data

Results flagged for a closer look

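The time effect, ZT10 against ZT22, differed between groups for 2 of the 4 genes by a test of the difference itself, the interaction term in edgeR. For Nr1d2 the log2 time effect in old H2O hearts differed from that in young hearts by -0.79 (adjusted p = 0.00328), and in old NR hearts by -1.01 (adjusted p = 0.000504). Each kept its call in all 12 fits that left out 1 heart, with ranges of -0.91 to -0.65 and -1.07 to -0.90. For Rorb the time effect in old NR hearts differed from that in young hearts by -1.51 (adjusted p = 0.0327), at 11 to 65 counts per heart, and was called in 5 of 12 such fits. These contrasts share the young hearts.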

How the results depend on the processing

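All values are log2 differences. Another normalization (DESeq2's size factors) and the other filter (filterByExpr in hearts, an average count over 5 for HL-1) changed no call or direction of the 4 genes. No contrast met the criterion for paired samples. With the replicate number as a block, Rora was called for the time effect in young hearts (0.31), for NR by time (-0.57) and for old NR by time against young (-0.47), and no other call changed. With log2 library size as a covariate, chosen after seeing the data, Rora was called in the same 3 (0.32, -0.60 and -0.48) and Rorb for time in old NR hearts (-0.83); uncalled values turned sign for Rora with FK866 against Ctrl (-0.06), and for Nr1d1 with FK866+NR against Ctrl (0.01), FK866+NR+Ex527 against FK866+NR (-0.02) and against Ctrl (-0.02). DESeq2 lost Rorb for old NR by time against young (-1.50). With only the groups compared, Rora was called for NR by time (-0.58) and for old NR against old H2O at ZT10 (-0.29), and lost for old NR against young at ZT22 (0.36). With no filter, Rora was called for Ex527 against FK866+NR (-1.04).

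Leaving out 1 library at a time moved calls as follows. Rora ranged from 0.36 to 0.45 for time in old H2O hearts (called in 1 of 6), 0.20 to 0.42 in young hearts (2 of 6), 0.27 to 0.46 for old NR against young at ZT22 (2 of 6), -0.66 to -0.50 for NR by time (1 of 12) and -0.59 to -0.37 for old NR by time against young (3 of 12). Rorb ranged from -1.75 to -1.35 for old NR by time against young (5 of 12), -1.47 to -0.93 for age by time (2 of 12) and -0.82 to -0.30 for time in old H2O hearts (1 of 6). Nr1d1 ranged from 0.21 to 0.57 for old H2O against young at ZT22 (1 of 6, without young replicate 2). The cause was not tested.

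Uncalled values near 0 crossed it. For Nr1d1 they ranged from -0.08 to 0.15 for old H2O against young at ZT10, -0.06 to 0.07 for old NR against old H2O and -0.09 to 0.14 for old NR against young there, -0.27 to 0.16 for old NR against young at ZT22, -0.15 to 0.28 for old NR by time against young, -0.03 to 0.09 for FK866, -0.13 to 0.01 for FK866+NR and -0.04 to 0.16 for FK866+NR+Ex527 against Ctrl. For Nr1d2 they ranged from -0.01 to 0.04 for old H2O against young at ZT10, -0.06 to 0.21 for old NR against old H2O at ZT22, -0.11 to 0.06 for FK866+NR+Ex527 against Ctrl and -0.04 to 0.15 against FK866+NR. Rora ranged from -0.01 to 0.19 for old H2O against young at ZT22, -0.02 to 0.21 for age by time and -0.16 to 0.27 for FK866 against Ctrl, and Rorb from -0.39 to 0.13 for old NR against old H2O at ZT22.

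Counts over all genes, the background of the calls, moved by over 1.5 times in several settings. Old NR against old H2O gave 44 at ZT10 (70 with the block, 78 with library size, 234 with only these groups, 0 to 22 with 1 heart left out) and 54 at ZT22 (86, 155, 2, and 2 to 78). NR by time gave 53 (96 with library size, 15 to 78 with 1 heart left out). Old H2O against young gave 906 at ZT10 (1423 with library size, 1479 with only these groups, 478 to 614 with 1 left out) and 2183 at ZT22 (1168 with only these groups, 1321 to 2007). Old NR against young gave 661 at ZT10 (1037, 1036, and 287 to 490) and 2189 at ZT22 (1214 with only these groups, 1301 to 2139), and old NR by time against young 924 (587 to 1066). Time in old H2O hearts gave 649 (349 to 746) and in old NR hearts 829 (455 to 875). FK866+NR against Ctrl gave 133 (764 with no filter, 342 with DESeq2, 8 with the block, 0 with library size or an average count over 5, 0 to 427 with 1 left out, and 0 without FK866+NR replicate 1). FK866+NR against FK866 gave 710 (1166 with no filter). FK866+NR+Ex527 gave 88 against FK866+NR (488 with no filter, 152 with DESeq2, 44 with library size, 51 to 82), 188 against FK866 (38 with library size, 112 to 291) and 209 against Ctrl (375, 317, 95, and 93 to 380).

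Depth limits Rorb, with 11 to 65 counts per heart, and Rora in HL-1 cells, with 38 to 121 counts.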
